A study of Mus musculus with 7 samples.

Results

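The zinc finger genes described here are the 105 protein-coding genes of the mouse RefSeq table (GRCm38.p6, the same build as mm10) whose symbol is Zfp followed by a digit and whose midpoint lies inside a lamin-associated domain (LAD). They are 105 of 397 such Zfp genes, and 292 lie outside. All 21887 protein-coding genes on placed chromosomes were assigned in the same way. The domains came from CUT&RUN, an antibody-guided nuclease assay, for Lamin B1, a filament protein of the nuclear lamina. Of the 7 libraries, 2 were for Lamin B1, 2 for an IgG control, 2 for H3K9me2 (1 for each of the antibodies ab1220 and 39041) and 1 for H3K14ac. All were made from iMEF, mouse embryonic fibroblasts with no treatment stated, grown as lines that were derived independently from a single mouse colony, with 500000 cells in a reaction. Lamin B1 was profiled in whole cells and the histone marks in extracted nuclei. The values below rest on the 1437 domains of the merged Lamin B1 list, which is called wild type only in its own name. It has no signal and no value per library, so depth is unknown and no position has a replicate error. Expression was not analysed here, so the fibroblast label was not checked against marker genes.

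Most Zfp genes encode proteins with tandem C2H2 fingers, each a short fold held by zinc that reads a few bases of DNA. Many also carry a KRAB domain, which binds the corepressor Trim28 and through it the H3K9 methyltransferase Setdb1, so that the bound DNA, often a retrotransposon, is silenced. KRAB zinc finger genes multiply by tandem duplication and lie in clusters, and mouse clusters on chromosomes 2, 4, 10 and 13 are known for their part in silencing endogenous retroviruses. LADs are the chromatin that touches the nuclear lamina, and they are mostly poor in genes and weakly transcribed. The symbol rule also takes in proteins with other kinds of finger, such as the CCCH proteins of the Zfp36 group, which bind RNA.

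Position inside a LAD is what chose the members, so shares and clusters by position are given as a description with no test. Of the Zfp genes, 26.4% lay inside, against 23.8% of all protein-coding genes and 19.1% of those other than olfactory and vomeronasal receptors. The share was thus near that of all genes and above that of genes other than these receptors. With LADs joined over gaps of at most 250 kb, 33.5% of Zfp genes and 27.3% of all protein-coding genes were inside.

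Promoter windows of members held fewer CpG than those of Zfp genes outside (medians of 8 and 16), and some members on different chromosomes carried the same short word in the promoter. Sequences come from RefSeq (GRCm38.p6), as windows of 250 bases before to 50 after a start site, taking the most upstream window of a gene. An entry was matched for 97 members and 234 outside genes. The members not matched were Zfp831, Zfp990, Zfp992, Zfp991, Zfp978, Zfp369, Zfp40 and Zfp711. The first set shows 4 members from 4 chromosomes, chosen because each holds the word CTGCCAGTCAGA, printed in capitals. In the order printed they are chr2:177464492-177464791 (plus strand), chr5:109996260-109996559 (plus), chr7:43177340-43177639 (plus) and chr10:82047873-82048172 (plus).
Zfp970: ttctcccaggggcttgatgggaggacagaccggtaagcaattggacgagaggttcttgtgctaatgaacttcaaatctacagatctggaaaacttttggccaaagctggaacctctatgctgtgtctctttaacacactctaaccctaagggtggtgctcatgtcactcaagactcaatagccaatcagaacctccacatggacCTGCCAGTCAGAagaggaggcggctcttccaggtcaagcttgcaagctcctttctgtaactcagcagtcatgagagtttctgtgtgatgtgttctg
Zfp932: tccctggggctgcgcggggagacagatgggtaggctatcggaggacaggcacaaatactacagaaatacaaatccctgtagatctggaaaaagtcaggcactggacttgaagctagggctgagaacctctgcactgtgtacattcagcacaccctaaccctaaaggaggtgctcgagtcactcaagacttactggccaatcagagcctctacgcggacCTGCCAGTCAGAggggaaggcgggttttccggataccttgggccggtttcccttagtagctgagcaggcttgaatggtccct
Zfp936: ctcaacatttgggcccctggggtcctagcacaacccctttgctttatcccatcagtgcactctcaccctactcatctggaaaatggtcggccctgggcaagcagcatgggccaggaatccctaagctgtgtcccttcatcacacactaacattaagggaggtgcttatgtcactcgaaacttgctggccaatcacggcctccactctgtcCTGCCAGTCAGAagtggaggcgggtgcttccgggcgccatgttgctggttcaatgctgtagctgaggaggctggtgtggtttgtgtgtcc
Zfp873: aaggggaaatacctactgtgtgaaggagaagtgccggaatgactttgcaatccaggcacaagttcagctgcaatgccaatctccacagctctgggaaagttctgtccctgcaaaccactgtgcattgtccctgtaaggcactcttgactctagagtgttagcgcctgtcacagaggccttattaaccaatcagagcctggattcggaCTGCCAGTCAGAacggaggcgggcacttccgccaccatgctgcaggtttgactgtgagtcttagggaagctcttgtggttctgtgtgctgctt
The word was searched on both strands and was picked after the promoters were seen, as the 12-base word found in the most members. That choice favours members, so the counts are a description. It was present in 17 of the 97 member promoters (17.5%), in 1 of 234 Zfp promoters outside (0.427%), in 0.888% of the 4278 promoters of genes inside LADs and in 0.246% of all 17492 protein-coding promoters of this length. The members with it were 9 genes of a single chromosome 2 LAD, several of them near-copies counted separately, the chromosome 5 genes Zfp33b, Zfp951 and Zfp932, the chromosome 7 genes Zfp977, Zfp976, Zfp975 and Zfp936, and Zfp873 on chromosome 10. Zfp950 was the outside gene. Of 25 promoters with the word that belong to genes with other names, 21 lay inside LADs, and most of these genes have provisional Gm or Rik symbols. In each of the 4 windows shown, the letters ccaatca stand upstream of the word.

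Some members had near-identical promoters. Zfp966 and Zfp967, which lie in a single LAD of chromosome 2, had identical windows (100%), and Zfp968 and Zfp973 of the same LAD matched at 99.7%. On chromosome 4, Zfp600 and Zfp979 matched at 94.8% in a global alignment. These are shown because they stand more than a megabase apart in the largest cluster that is wholly inside, at chr4:146156577-146156876 (plus strand) and chr4:147642459-147642758 (minus). Capitals mark the 10 bases of each without an identical partner.
Zfp600: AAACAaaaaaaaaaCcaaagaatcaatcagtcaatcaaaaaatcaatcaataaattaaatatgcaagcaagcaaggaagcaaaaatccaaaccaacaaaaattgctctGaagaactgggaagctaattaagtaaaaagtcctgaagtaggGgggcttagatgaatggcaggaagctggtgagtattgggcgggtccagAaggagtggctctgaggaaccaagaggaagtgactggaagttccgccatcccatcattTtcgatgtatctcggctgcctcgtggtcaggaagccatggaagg
Zfp979: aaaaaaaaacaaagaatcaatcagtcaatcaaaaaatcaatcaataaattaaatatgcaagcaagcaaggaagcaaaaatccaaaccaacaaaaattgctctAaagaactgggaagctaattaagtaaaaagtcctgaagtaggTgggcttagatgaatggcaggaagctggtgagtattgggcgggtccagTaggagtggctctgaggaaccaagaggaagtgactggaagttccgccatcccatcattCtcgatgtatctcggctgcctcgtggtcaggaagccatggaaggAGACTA
For each Zfp promoter, the most similar one among the other 330 was found. The median identity of this best match was 66.6% for 97 members, with quartiles of 55.4% and 84.3%, and 55.0% for 234 outside genes, with quartiles of 54.3% and 56.8%. A best match of 80% or more was present for 29 members (29.9%) and for 4 outside genes (1.71%), namely Zfp747 with Zfp764 and Zfp955a with Zfp955b. Of 57 members with a best match of at least 60%, 53 had it with another member and 44 with a gene of their own cluster. Such near-copies bear on the measurement, because short reads from them can be hard to place, and the part this plays in the domain calls was not tested.

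CpG content was lower in members. The ratio of observed to expected CpG in the window had a median of 0.44 in 97 members (quartiles 0.29 and 0.62) and of 0.69 in 234 outside Zfp genes (quartiles 0.49 and 0.83). The groups overlapped widely, from 0.14 to 1.07 inside and from 0 to 1.20 outside. At a ratio of 0.6 or more there were 27 members (27.8%) and 148 outside genes (63.2%). All protein-coding genes had medians of 0.20 in LADs (4278 promoters) and 0.69 outside (13214). With olfactory and vomeronasal receptors left out, the medians were 0.26 in LADs (3142 promoters) and 0.69 outside (13083). The 2 windows below, with CpG in capitals, belong to a single cluster of chromosome 7 on either side of a border. Zfp977 lies inside (chr7:42592496-42592795, minus strand; 6 CpG, ratio 0.27) and Zfp819 outside (chr7:43606919-43607218, plus strand; 20 CpG, ratio 1.05).
Zfp977: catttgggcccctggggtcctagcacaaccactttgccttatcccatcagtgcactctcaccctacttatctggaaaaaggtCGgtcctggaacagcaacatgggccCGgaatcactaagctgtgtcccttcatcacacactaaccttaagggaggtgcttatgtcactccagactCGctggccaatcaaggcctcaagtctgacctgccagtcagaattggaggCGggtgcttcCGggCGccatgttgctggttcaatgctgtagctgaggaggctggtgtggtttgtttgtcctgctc
Zfp819: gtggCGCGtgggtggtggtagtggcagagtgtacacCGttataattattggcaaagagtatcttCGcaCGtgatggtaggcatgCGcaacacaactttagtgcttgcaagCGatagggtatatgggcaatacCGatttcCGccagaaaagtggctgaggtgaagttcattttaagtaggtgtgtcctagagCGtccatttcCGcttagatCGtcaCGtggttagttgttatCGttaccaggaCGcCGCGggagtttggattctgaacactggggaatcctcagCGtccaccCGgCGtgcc

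Within that chromosome 7 cluster the 5 inside promoters had ratios of 0.26 to 0.68 (median 0.36) and the 4 outside ones 0.58 to 1.05 (median 0.76). The larger clusters cut by a border had closer medians. In the chromosome 13 cluster the medians were 0.49 for 15 promoters inside and 0.51 for 6 outside, and in the large chromosome 17 cluster 0.53 for 14 inside and 0.48 for 7 outside. Over all 7 such clusters the medians were 0.50 for 42 promoters inside and 0.60 for 26 outside, against 0.35 for 31 promoters in clusters wholly inside and 0.64 for 108 in clusters wholly outside.

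**Figure D1:**
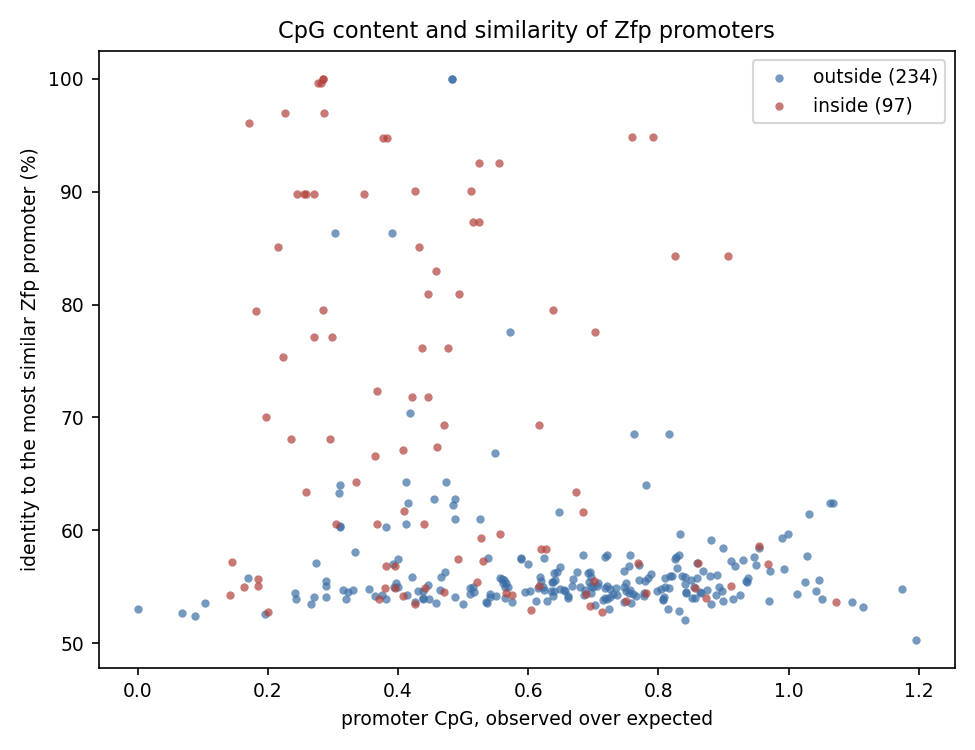
Each point is a Zfp gene with a promoter entry (97 inside LADs in red, 234 outside in blue), with the ratio of observed to expected CpG on the horizontal axis and the identity to the most similar other Zfp promoter, in percent, on the vertical axis. Members spread up to 100% identity, mostly at CpG ratios under 0.6, whereas outside genes gather near 55.0% identity over the whole CpG range.

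Core promoter words were searched on both strands. CCAAT, the site of the NF-Y factor, was present in 62 of 97 members (63.9%), in 102 of 234 outside genes (43.6%), in 39.2% of all protein-coding promoters and in 41.3% of those inside LADs. In the 120 bases before the start it was present in 57.7% of members, 30.3% of outside Zfp genes and 24.4% of all promoters. TATAAA was rare in members, with 2 of 97 (2.06%), against 8.12% of outside Zfp genes, 13.3% of all promoters and 25.1% of all promoters inside LADs. GGGCGG, an Sp1 site, was present in 38.1% of members, 47.0% of outside Zfp genes, 46.3% of all promoters and 19.1% of those inside LADs. CCATNTTG, part of a YY1 site, was present in 3.09% of members, 8.55% of outside Zfp genes, 5.41% of all promoters and 4.25% of those inside LADs. For GCATGCGC, an NRF1 site, the shares were 1.03%, 6.84%, 3.61% and 1.17% in the same order, so members were at the level of LAD promoters in general. The promoters inside LADs include those of olfactory and vomeronasal receptors, and shares without them were not computed. These words were chosen with earlier results in view, and similar promoters of 1 cluster are counted separately in these shares.

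Zfp genes were grouped into clusters by joining neighbours whose midpoints are at most 500 kb apart. This gave 34 clusters of 3 or more genes with 239 genes, of which 78 were members. Members were in such clusters in 74.3% of cases and outside genes in 55.1%. In 6 clusters with 35 genes, each gene was inside a LAD. In 21 clusters with 129 genes, none was. The other 7 clusters, with 75 genes, had 43 inside and 32 outside. Of 220 pairs of adjacent Zfp genes in a run, 204 were both inside (66) or both outside (138), and in 16 pairs 1 gene was inside and the other outside. The share on the same side was 92.7%, with a median distance of 43.5 kb between the genes of a pair. For 20845 pairs of adjacent protein-coding genes of any kind within 500 kb it was 94.2%, with a median distance of 41.9 kb.

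**Figure D2:**
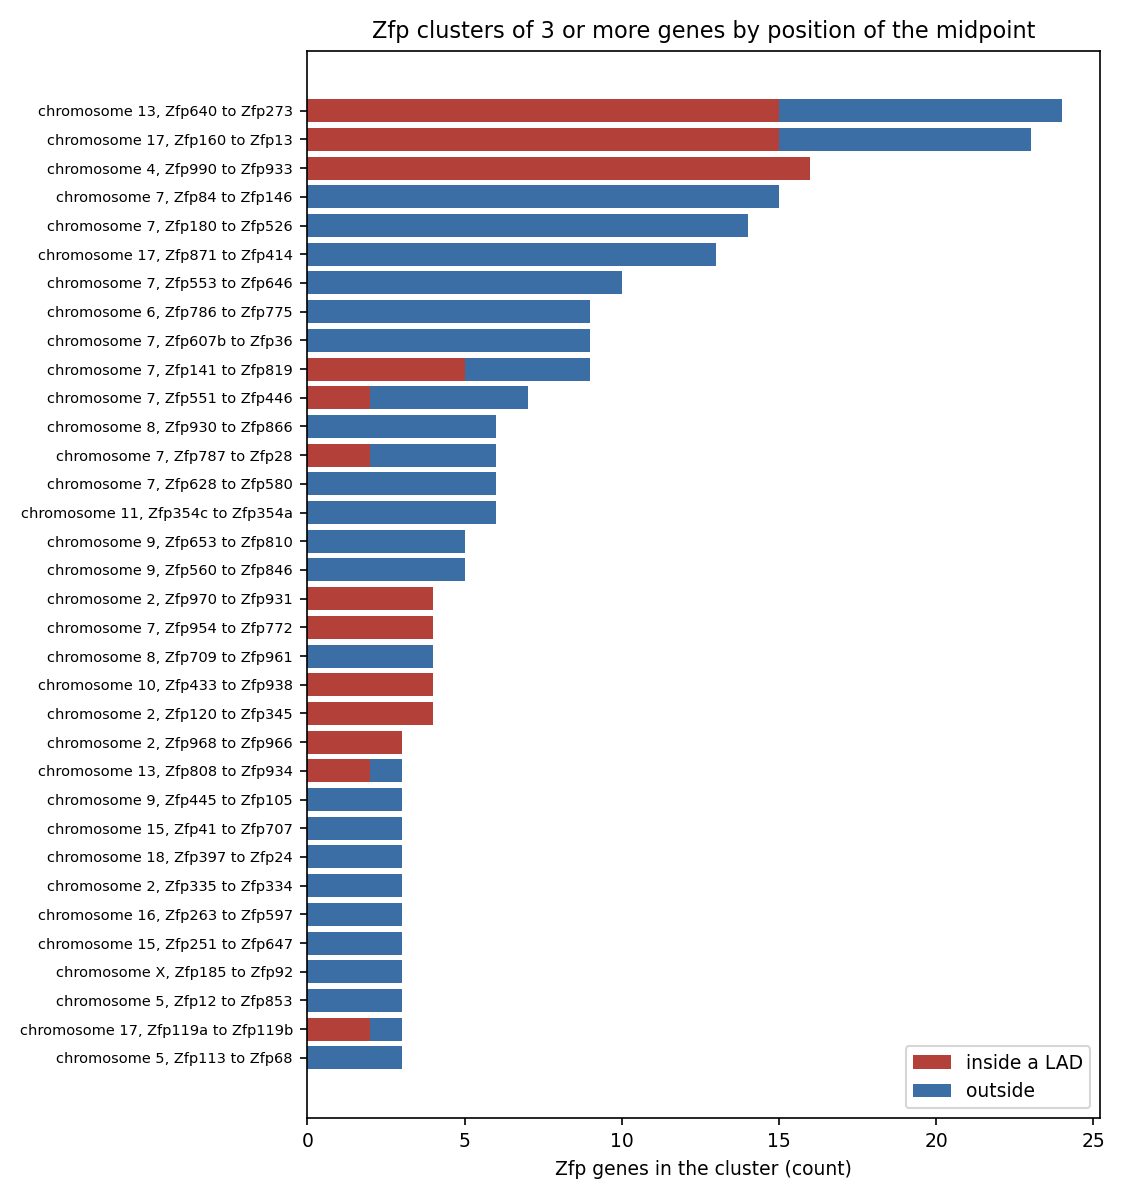
Bars give the number of Zfp genes in each of the 34 clusters of 3 or more genes, with genes inside LADs in red and outside in blue. The clusters of chromosomes 13, 17 and 4 at the top hold 46 members, and the next 4 in size hold none.

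The 3 largest clusters held 46 of the 105 members (43.8%), whereas the next 4 in size, with 52 genes, held none. The cluster that runs from Zfp990 to Zfp933 on chromosome 4 spans 2338 kb, and its 16 genes were all inside. Zfp990 and Zfp980 lay in a LAD of 640.0 kb (chr4:145297964-145937961). After a gap of 90.0 kb without a Zfp gene, the other 14 lay in a LAD of 1817 kb (chr4:146027962-147845455). Of the 15 protein-coding genes in that second LAD, 14 were Zfp genes (93.3%). Among them are Zfp600, Zfp981, Zfp982, Zfp985 and Zfp534. The RefSeq spans of Zfp993 (479 kb) and Zfp978 (267 kb) run over neighbouring members. The LAD ended inside Zfp933, 9.40 kb past its midpoint, so that its start site lay outside.

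On chromosome 13, 24 genes from Zfp640 to Zfp273 fill 1157 kb, and borders cut them into blocks. From Zfp640 to Zfp874a, 13 genes lay in the end of a LAD of 2987 kb (chr13:64463138-67450628), which also held the isolated Zfp369. Zfp708, which binds a retrotransposon and keeps DNA methylation there, was 367 kb from the border. The next 5 genes (Zfp874b, Zfp58, Zfp87, Zfp748 and Zfp729b) lay in a gap of 167 kb. Zfp729a and Zfp738 were in a small LAD of 92.5 kb (chr13:67618128-67710627) that held no other protein-coding gene. Zfp65, Zfp85, Zfp493 and Zfp273 filled the following gap of 115 kb, after which a LAD without Zfp genes began. By midpoint, Zfp729a and Zfp729b, adjacent genes that share a name, were on opposite sides, as were Zfp874a and Zfp874b. Borders cross both inside genes, the start site of Zfp874a was outside, the LAD of Zfp729a is under the 100 kb tried as a minimum, and the gap with Zfp874b and Zfp729b is closed by joining over 250 kb, so these splits rest on the placement chosen.

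The chromosome 17 cluster, from Zfp160 to Zfp13, spans 2591 kb with 15 of 23 genes inside. Zfp160 stood at the edge of a LAD of 410.0 kb (chr17:21019022-21429020), with its midpoint 0.123 kb outside, and Zfp677 lay within it. A gap of 157.5 kb held Zfp54, Zfp51, Zfp53, Zfp52 and Zfp948. The following 14 genes, from Zfp983 to Zfp40, lay in a LAD of 1947 kb (chr17:21586521-23534013), where they were 56.0% of the 25 protein-coding genes. The last genes of the run, Zfp213 and Zfp13, were outside. Vomeronasal receptor genes numbered 4 in the first of these LADs and 8 in the second.

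**Figure D3:**
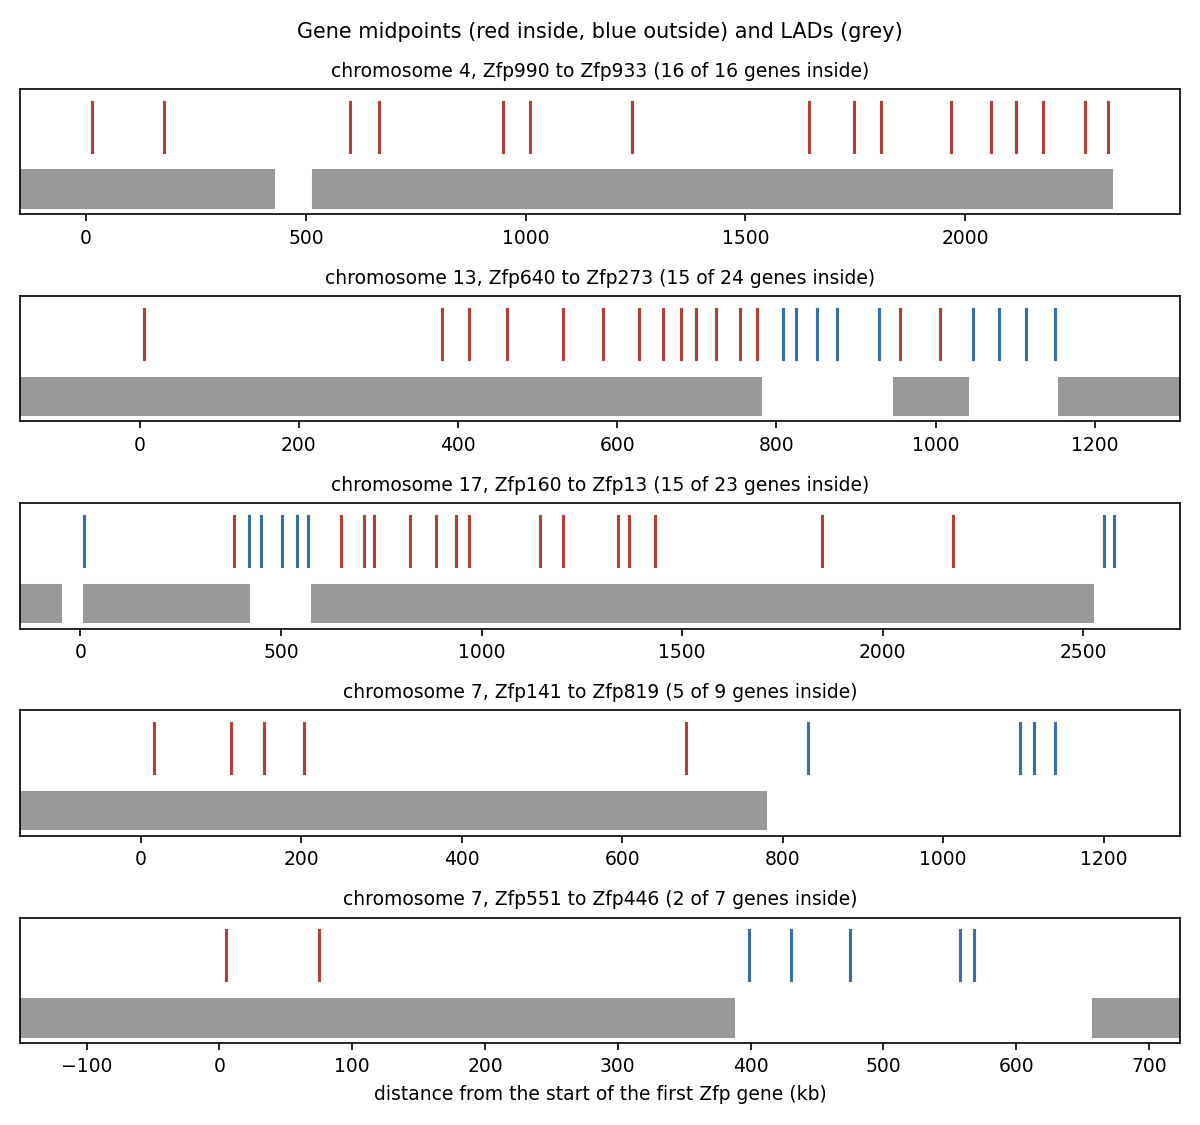
Maps of 5 clusters with the distance in kb from the start of the first Zfp gene on the horizontal axis, gene midpoints as vertical lines (red inside, blue outside) and LADs as grey bars. The chromosome 4 cluster is covered almost throughout, while on chromosomes 13 and 17 blocks of 4 or 5 adjacent genes fall into gaps.

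Inside LADs were 27.8% of all protein-coding genes of chromosome 2 and 59.3% of its 27 Zfp genes, which gave 16 members. A single LAD of 5385 kb (chr2:174471859-179856841) contained 10 of them: Zfp831, Zfp968, Zfp965, Zfp966, Zfp967, Zfp973, Zfp970, Zfp972, Zfp971 and Zfp931. It had 41 protein-coding genes, of which 21 had Gm symbols. The 5 members farthest from any border were all here. They were Zfp970 at 2385 kb, Zfp973 at 2204 kb, Zfp967 at 2056 kb, Zfp972 at 1942 kb and Zfp971 at 1827 kb. Another LAD, of 2007 kb (chr2:148751941-150759433), held the cluster of Zfp120, Zfp937, Zfp442 and Zfp345. On chromosome 10 the 4 genes Zfp433, Zfp781, Zfp873 and Zfp938 shared a LAD of 902 kb (chr10:81693322-82595818) with 10 genes of Gm symbol.

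Chromosome 7 has the most Zfp genes, 93, of which 16 were inside (17.2%), against 37.4% of all protein-coding genes of that chromosome. The shares of all genes by chromosome include olfactory and vomeronasal receptors, and shares without them were not computed, so the size of this contrast is uncertain. The share of Zfp genes inside was also below that of all genes on chromosomes 6, 8 and 9, for example. It was above it on chromosomes 2, 4 and 13, among others. A LAD of 3625 kb (chr7:39627502-43252490) held Zfp788, Zfp141, Zfp977, Zfp976, Zfp975 and Zfp936, and beyond its end Zfp715, Zfp658, Zfp719 and Zfp819 were outside. Zfp954, Zfp773, Zfp418 and Zfp772 lay in a LAD of 810.0 kb (chr7:6442607-7252604) with 7 olfactory receptor genes. Zfp667 and Zfp583 were the only protein-coding genes of a LAD of 75.0 kb (chr7:6277608-6352607), with Zfp787 and Zfp444 in the gap before it and Zfp78 and Zfp28 in the gap after it. Zfp551 and Zfp606 lay in a LAD of 5482 kb (chr7:7317605-12800086) with 46 vomeronasal receptor genes. The gap that follows it (chr7:12800087-13070085) held Zfp329, Zfp110, Zfp128, Zfp324 and Zfp446, and also Trim28, the KRAB corepressor, 42.5 kb from a border. Further along, a LAD of 4055 kb with 85 vomeronasal receptor genes (chr7:20000064-24055051) ended 39.7 kb before the midpoint of Zfp180, the first of 14 Zfp genes in a cluster wholly outside.

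Smaller clusters contributed few members. Zfp808 and Zfp935 of chromosome 13 lay in a LAD of 1907 kb, while Zfp934 was in the gap after it. Zfp119a and Zfp959 of chromosome 17 were in a LAD of 2192 kb and Zfp119b was outside. Each cluster of 3 or more genes was wholly outside on chromosomes 5, 6 (Zfp786 to Zfp775, 9 genes), 8, 9, 11 (Zfp354c to Zfp354a, 6 genes), 15, 16, 18 and X, and chromosomes 2, 7 and 17 also had clusters wholly outside. Chromosomes 3, 6, 14, 15, 16, 18 and 19 had Zfp genes but no member.

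The domains with members numbered 34, with a median length of 1721 kb, against 780.0 kb for the 950 LADs with any protein-coding gene. Since a long LAD has more room for genes, this alone says little about the family. In these 34 LADs there were 9.46 protein-coding genes per Mb, and 7.77 with Zfp genes left out, against 4.48 in the 950 LADs with a protein-coding gene. Of their 482 genes with other names, 247 were olfactory or vomeronasal receptors. Without Zfp genes and these receptors the density was 3.79 per Mb, close to the 3.26 per Mb of the 950 LADs counted in the same way. Members were concentrated, with 70 of 105 (66.7%) in 8 LADs of 3 or more and 42 in the 3 fullest, which had 14 each. In these 8 LADs, 136 protein-coding genes had other names. Provisional Gm or Rik symbols made up 45.6% of these, against 16.8% of non-Zfp genes in all LADs and 8.14% of all non-Zfp protein-coding genes. A further 17 were vomeronasal and 8 olfactory receptors. Of the 56 Gm symbols among the 136, 21 stood in the LAD of 5385 kb on chromosome 2. The rule goes by symbol, so a zinc finger gene under a Gm or Rik symbol is counted here as a neighbour. How many there are was not tested, as protein sequences were lacking.

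The number in a symbol only names the gene, but the share inside differed by it. Of the 64 Zfp genes numbered 900 or above, 46 were inside (71.9%). For numbers 1 to 299 it was 10 of 112 (8.93%), for 300 to 599 it was 21 of 103 (20.4%) and for 600 to 899 it was 28 of 118 (23.7%). Within clusters of 3 or more genes, 40 of 52 genes numbered 900 or above were inside (76.9%), against 38 of 187 with lower numbers (20.3%). In the 7 clusters with genes on both sides, 16 of 18 with a number of 900 or above were inside and 27 of 57 with a lower one. Genes with numbers of 900 or above often stood together at a few loci, and each was counted separately. Zfp979, Zfp980 and Zfp981 belong to the chromosome 4 cluster. Zfp965 to Zfp968 share a LAD of chromosome 2, and Zfp942 to Zfp947 share a LAD of chromosome 17. The split at 900 was chosen after the positions were seen.

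**Figure D4:**
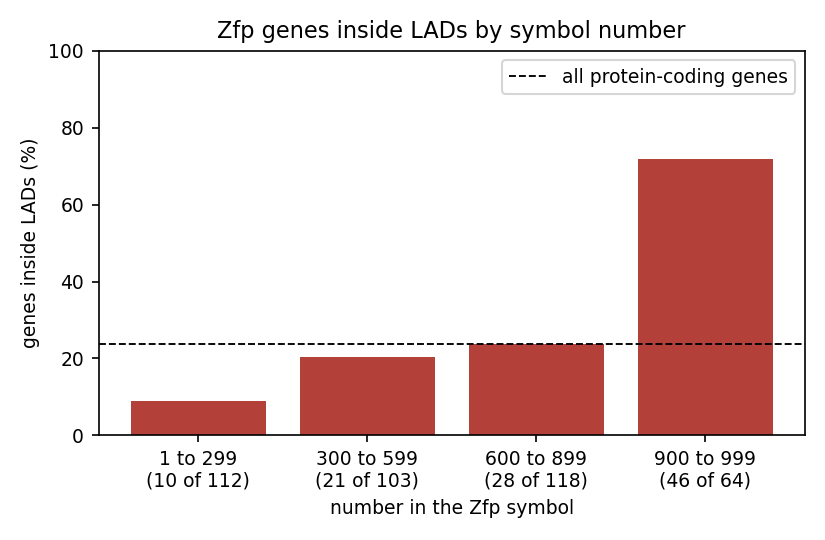
Bars give the percentage of Zfp genes inside LADs by the number in the symbol, with the counts under each bar, and the dashed line gives the 23.8% of all protein-coding genes. Genes numbered 900 to 999 stand at 71.9%, above the other 3 groups. Genes of the same locus are counted separately.

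The median gene span was 22.6 kb in 105 members (quartiles 14.4 and 31.9 kb) and 16.2 kb in 292 outside genes (quartiles 11.6 and 27.7 kb). All protein-coding genes had medians of 10.2 kb in LADs and 18.6 kb outside, but with olfactory and vomeronasal receptors left out these were 20.7 and 18.9 kb. In clusters of 3 or more, members had a median of 22.6 kb and outside genes 14.9 kb. Among the other Zfp genes the order was turned, with 21.3 kb for 27 members and 22.65 kb for 131 outside genes. A span of 100 kb or more was found for 7 members (6.67%), for 5.48% of outside Zfp genes and for 15.7% of all protein-coding genes inside LADs (21.0% without the receptors). The 5 longest were Zfp804b (575 kb), Zfp993 (479 kb), Zfp536 (456 kb), Zfp385b (407 kb) and Zfp978 (267 kb). Zfp804a measured 210 kb. Zfp804a and Zfp804b, known from the nervous system, each stood alone in long LADs with 2 and 3 protein-coding genes, 1388 and 931 kb from a border. Zfp536, a repressor of neuronal differentiation, is longer than the LAD of 175.0 kb that held its midpoint, and its start lay outside.

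The distance from a member's midpoint to the closest LAD edge had a median of 276 kb (quartiles 98.5 and 625 kb), close to the 308 kb of all protein-coding genes in LADs. With olfactory and vomeronasal receptors left out, the genes in LADs had a median of 247 kb. With LADs joined over gaps of at most 250 kb the median of members became 1270 kb for 133 genes. Outside Zfp genes were at a median of 694 kb from a border, and all outside protein-coding genes at 796 kb. Within 50 kb of a border there were 17 members (16.2%) and 35 outside genes (11.99%), against 13.5% of all protein-coding genes inside LADs and 6.10% of those outside. Without the receptors these last 2 shares were 15.9% and 5.93%, so members were at the level of other genes in LADs. Just inside were Zfp825 (1.91 kb), Zfp874a (4.60 kb), Zfp729a (7.15 kb), Zfp939 (9.05 kb) and Zfp933 (9.40 kb). Just outside were Zfp160 (0.123 kb), Zfp54 (0.285 kb), Zfp37 (3.61 kb), Zfp273 (5.22 kb) and Zfp65 (6.62 kb). All domain lengths (100%) were within 125 bp of a multiple of 2500 bp, so the side is uncertain for Zfp825, Zfp160 and Zfp54, which lay closer to a border than such a step. A border crossed 6 members, and 10 outside genes reached into a LAD. Of 97 members with a start site in the table, 93 had it inside too, the exceptions being Zfp933, Zfp536, Zfp874a and Zfp825.

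**Figure D5:**
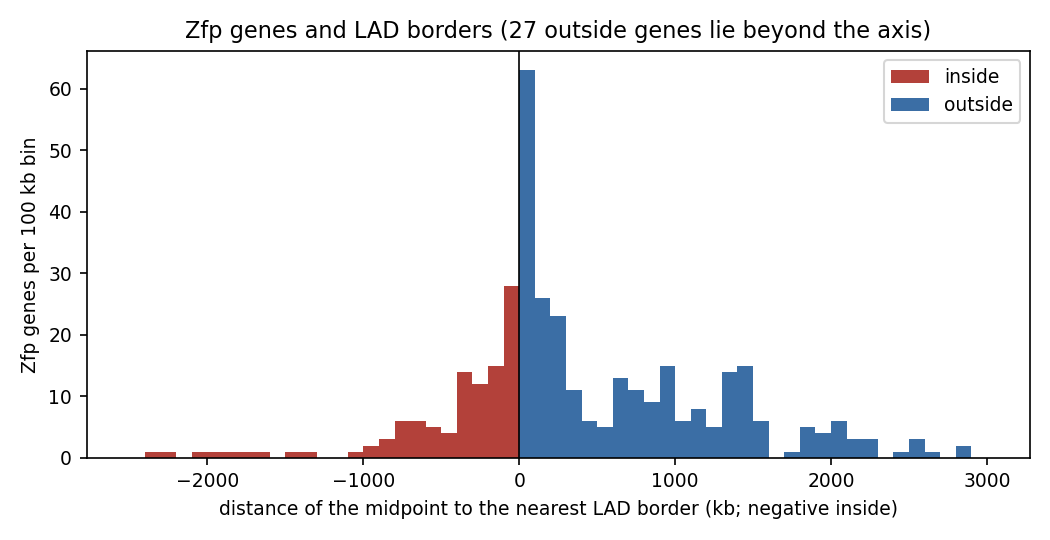
Histogram of Zfp genes by the distance in kb of the midpoint to the nearest LAD border, in bins of 100 kb, with members in red at negative distances and outside genes in blue. Both groups are densest next to the border and become fewer with distance, though outside genes do not do so steadily. Outside genes in clusters of 3 or more have a median of 830 kb and an upper quartile of 1434 kb. Beyond 3000 kb lie 27 outside genes.

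Of 30 Zfp genes listed for known roles, 8 were inside (26.7%), the same level as the family. Zfp42 (Rex1), a marker of pluripotent cells, lay 12.03 kb inside a LAD of 1835 kb. Zfp932, a repressor of endogenous retroviruses, lay 57.6 kb inside a LAD with 10 vomeronasal receptor genes. Zfp369, a relative of the neurotrophin receptor interactor Zfp110, was 828 kb inside, whereas Zfp110 itself was 42.6 kb outside. Zfp711, an X-linked gene of the nervous system, was 171 kb inside. The other members of this list were Zfp708, Zfp536, Zfp804a and Zfp804b. Zfp57 and Zfp445, which protect imprints, were outside at 243 and 708 kb from a border. Zfp809, which silences retroviruses, was outside at 1888 kb and Zfp568, a repressor of a placental Igf2 transcript, at 1216 kb. The RNA-binding genes Zfp36, Zfp36l1 and Zfp36l2 were also outside, at 1295, 2170 and 1033 kb, while their relative Zfp36l3 on the X chromosome was a member, 37.9 kb inside.

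None of the 23 genes listed for the KRAB corepressor machinery had its midpoint in a LAD. For all protein-coding genes the share was 23.8%, and 19.1% without olfactory and vomeronasal receptors. The median distance of the 23 listed genes to a border was 909 kb. Setdb1, the methyltransferase recruited by Trim28, was 1027 kb away. The heterochromatin protein genes Cbx1, Cbx3 and Cbx5 were 2968, 4140 and 295 kb away. Hdac2, a histone deacetylase, was nearest at 19.6 kb. With gaps of at most 250 kb joined, 13.0% of the list and 27.3% of all protein-coding genes lay inside.

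Other zinc finger families were placed in the same way, beside the 23.8% of all protein-coding genes (19.1% without olfactory and vomeronasal receptors). For Zbtb genes, in which the fingers follow a BTB domain, it was 2 of 41 (4.88%), with Zbtb44 and Zbtb14 inside. For Zscan and Zkscan genes it was 6 of 27 (22.2%), and 4 of these were the Zscan4 copies Zscan4b, Zscan4c, Zscan4d and Zscan4f, known from early embryos. For Klf and Sp symbols it was 7 of 29 (24.1%), but Sp100, Sp110 and Sp140, which are nuclear body proteins and no members of the Sp factor family, were 3 of the 7. Prdm genes had 2 of 14 inside (14.3%) and Zic and Gli genes 2 of 8 (25.0%). These small families moved with the placement. With gaps of at most 250 kb joined, Zic and Gli genes reached 62.5%, Prdm genes 28.6% and Zbtb genes 7.32%, against 33.5% of Zfp genes and 27.3% of all. With the whole gene required inside, Klf and Sp symbols were at 13.8%, Prdm genes at 7.14% and Zbtb genes at 2.44%, against 21.8% of all genes. With LADs of at least 500 kb, the values were 7.14% for Prdm and 2.44% for Zbtb genes, against 20.7% of all genes. Zbtb genes were at 2.44% with LADs of at least 100 kb too, against 23.3% of all genes.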

How the data were processed

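The authors deposited 1 list of domains for the merged Lamin B1 data, with start and end positions in base pairs and a score that is 0 in each line. Bowtie2 and the build mm10 are named in the submitters' processing notes. The domain caller, its threshold, the merging and the use of IgG are not given in the sources used here. That both Lamin B1 libraries enter the list is read from the word merged in its name. Depth is unknown.

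Genes were placed by midpoint with Python 3.11.15, pandas 2.3.3 and numpy 2.4.6. The placement was tested on simulated data with 2000 genes and 300 domains, of which 100% were placed as planted. Promoters were aligned globally with Biopython 1.88 (match 2, mismatch -1, gap opening -3, gap extension -1). Members, lists, motifs and comparisons were chosen with earlier results of these data known. Genes are no replicates and no library has its own values, so no test was run. Named are genes of clusters with 3 or more members inside, those nearest to and farthest from a border, the longest, and 2 lists. Other genes, such as those of clusters with 2 members inside or none, of promoter comparisons and of other families, were named after their values were seen. Counts of C2H2 fingers, KRAB motifs and other finger proteins need protein sequences and were not run. Alternatives changed the gene position, the domain length, the joining of gaps, the cluster distance and the promoter window.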

Additional observations from a re-analysis of the deposited data

How the results depend on the processing

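Of 110 values recomputed under alternatives for 20 results, 104 stayed within the binomial 95% interval of the reported share or median, or within 1.5 times the reported count. These intervals count each gene as a separate draw and are wide for short lists, so the tally does not measure stability. With the whole gene required inside, Klf and Sp symbols went from 24.1% to 13.8% and still lay within their interval of 12.2% to 42.1%. With gaps of at most 250 kb joined, the share of Zfp genes inside rose from 26.4% to 33.5%, clusters with genes on both sides fell to 4 from 7, the median distance of members to a border went from 276 to 1270 kb and the share of Zic and Gli genes inside from 25.0% to 62.5% of 8. All protein-coding genes inside rose to 27.3% under that joining. With LADs of at least 500 kb only, the median distance of outside Zfp genes to a border was 951 kb in place of 694 kb. With clusters joined over 250 kb, 4 had genes on both sides. The cause was not tested, beyond the fact that joining removes borders and a minimum length removes domains. Alternatives for the promoter window, symbol numbers, number of LADs and both gene lists were chosen after seeing the data. No paired analysis was possible because the list has no values per replicate, and leaving out each Lamin B1 library was not run for that reason. The alternatives for finger and KRAB patterns were not run without protein sequences.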

Other observations

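Among outside genes, Zfp955a and Zfp955b on chromosome 17 had identical promoter windows (100%). Zfp119b, outside next to the members Zfp119a and Zfp959, had no CpG in its window (0), while the windows of those members matched each other at 92.5%. In the LAD of 1175 kb on chromosome 7 that held Zfp939, 13 of the 14 protein-coding genes had Gm symbols.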
